A study of Mus musculus with 12 samples.

Results

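Mitochondrial ribosomal proteins are the nuclear-encoded proteins of the mitoribosome, the particle that translates the few messages of the mitochondrial genome into core subunits of the respiratory chain. Their 78 genes, 49 with large subunit names (Mrpl) and 29 with small subunit names (Mrps), were taken from the 17358 genes of the count table by symbol alone, leaving out pseudogenes. All had at least 1 count in some library, and 77 of them were among the 9550 genes with enough counts to be tested. The exception was Mrps27, a small subunit member. The cells were perivascular macrophages (PVM), the macrophages that lie along the vessels of the brain, from C57BL mice. The libraries came from 5 biological replicates of aged mice (18 months) and 7 of young adult mice (3 months), with no other treatment or allele given. The labels do not say how the cells were sorted, how many cells or animals went into a library, or which sex they were. The p-values below therefore measure the spread between these libraries. In such pooled RNA, fewer cells of a type and less RNA per cell cannot be told apart.

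Mitoribosomal proteins are made in the cytosol, imported, and assembled on the mitochondrial ribosomal RNAs. The small subunit binds the messenger and reads its codons, and the large subunit joins amino acids and holds the exit tunnel through which the new chain is inserted into the inner membrane. Members whose names carry the numbers of bacterial ribosomal proteins (Mrpl up to 36, Mrps up to 21) have bacterial relatives, while higher numbers were given to proteins specific to mitochondria. The Mrpl and Mrps names do not always give the subunit: Mrps18a and Mrps30 sit in the large subunit in structures of the mammalian particle, and Mrps36 is known as a component of the alpha-ketoglutarate dehydrogenase complex. Genes of this family have compact promoters and are known targets of NRF1, ETS factors such as GABP, and YY1.

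Promoter windows of 250 bases before to 50 bases after a RefSeq start site (GRCm38.p6) were found for 69 of the 78 members. Of the 8 members of highest level, 4 from each subunit, Mrpl15 has no window in that table, and those of Mrpl23 and Mrps14 held none of the motifs. The other 5 windows are printed to show the sequences behind the motif counts that follow. Capitals mark the ETS motif CCGGAAG, the YY1 motif AAGATGGCG and the core of the NRF1 motif, GCATGCGC, each on either strand. All are written 5′ to 3′ on the strand of the gene. Mrpl33 lies on the plus strand (window chr5:31613701-31614000), Mrpl42 on the minus strand (chr10:95501900-95502199) and Mrps18c on the plus strand (chr5:100798509-100798808). Mrps21 (chr3:95871465-95871764) and Mrps33 (chr6:39810887-39811186) lie on the minus strand.
Mrpl33: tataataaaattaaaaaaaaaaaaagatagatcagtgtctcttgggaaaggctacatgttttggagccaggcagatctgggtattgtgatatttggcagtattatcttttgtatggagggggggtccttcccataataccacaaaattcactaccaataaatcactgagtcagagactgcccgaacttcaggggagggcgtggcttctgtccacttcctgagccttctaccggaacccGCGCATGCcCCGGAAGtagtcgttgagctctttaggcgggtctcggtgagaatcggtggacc
Mrpl42: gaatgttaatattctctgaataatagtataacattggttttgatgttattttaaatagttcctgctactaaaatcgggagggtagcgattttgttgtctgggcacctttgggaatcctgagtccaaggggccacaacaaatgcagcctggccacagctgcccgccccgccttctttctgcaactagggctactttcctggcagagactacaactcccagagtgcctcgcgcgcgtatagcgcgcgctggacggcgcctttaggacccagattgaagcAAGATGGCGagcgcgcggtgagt
Mrps18c: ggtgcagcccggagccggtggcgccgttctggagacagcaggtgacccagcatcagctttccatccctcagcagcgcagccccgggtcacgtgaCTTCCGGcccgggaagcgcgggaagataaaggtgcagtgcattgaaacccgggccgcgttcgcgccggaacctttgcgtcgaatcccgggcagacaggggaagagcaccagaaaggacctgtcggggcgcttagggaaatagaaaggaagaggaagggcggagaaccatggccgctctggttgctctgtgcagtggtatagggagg
Mrps21: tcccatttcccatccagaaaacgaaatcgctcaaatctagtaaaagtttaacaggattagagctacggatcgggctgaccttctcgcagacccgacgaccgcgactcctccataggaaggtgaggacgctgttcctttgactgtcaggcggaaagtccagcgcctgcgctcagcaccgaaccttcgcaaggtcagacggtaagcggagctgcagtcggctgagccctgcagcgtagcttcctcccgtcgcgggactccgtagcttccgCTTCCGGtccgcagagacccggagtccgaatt
Mrps33: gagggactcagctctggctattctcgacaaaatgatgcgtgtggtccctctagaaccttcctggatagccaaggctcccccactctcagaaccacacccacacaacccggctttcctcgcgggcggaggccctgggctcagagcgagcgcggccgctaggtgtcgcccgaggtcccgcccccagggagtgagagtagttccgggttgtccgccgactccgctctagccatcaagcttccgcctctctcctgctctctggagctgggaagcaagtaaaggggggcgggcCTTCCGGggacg

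In the Mrpl33 window the core NRF1 letters began 12 bases before the start site on the reverse strand, and the ETS letters began 3 bases before it. The YY1 letters of Mrpl42 began at base 28 after the start site and hold the letters ATG. In Mrps18c the ETS motif began 156 bases before the start site, and in Mrps21 and Mrps33 at bases 19 and 39 after it, each on the reverse strand. Over all 69 windows, 24 (34.8%) held the ETS motif, against 9.14% of the 27025 mouse windows and 14.7% of the 13661 windows of genes in the count table. The YY1 motif was in 8 member windows (11.6%), against 1.48% of all windows and 2.42% of those of table genes. The core NRF1 letters were in 8 (11.6%), against 2.8% and 4.33%. Of these, 3 held the longer form of the motif, the core with GC before it, which was in 0.981% of all windows. The TATA letters TATAAA went the other way, in 4 member windows (5.8%) against 14.2% of all windows and 9.69% of those of table genes. By subunit name, ETS letters were in 14 of 43 large and 10 of 26 small subunit windows, YY1 letters in 4 and 4, and core NRF1 letters in 7 and 1. A match is a description of these letters and not a bound site, and the expression data do not measure binding.

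The libraries held between 23214836 and 30628787 estimated counts, of which the members together made up between 0.513% and 0.814%. As a check of the labelled cell type, all 12 perivascular macrophage genes were present, with a summed level of 12530 to 18830 CPM (counts scaled to the library total with TMM factors) in aged and 13670 to 22660 in young libraries. Microglial genes summed to 4039 to 5923 CPM in aged and 3976 to 7141 in young libraries, and endothelial genes to at most 27.6 CPM in any library. Mural cell and fibroblast genes reached 169.8 CPM in aged and 101.7 CPM in young libraries. The highest sums in aged and young libraries were 92.2 and 40.3 CPM for neuronal genes and 91.0 and 65.0 for astrocyte genes. They were 78.8 and 84.6 CPM for oligodendrocyte genes, and 23.6 and 66.5 for lymphocyte and neutrophil genes. The 7 choroid plexus genes summed to 199.6 to 1106 CPM in aged and 59.2 to 146.1 in young libraries, most of it Ttr. Kcnj13, of the same list, had 52.3, 72.6, 39.5, 38.9 and 0.0333 CPM in aged libraries 1 to 5 and at most 2.61 CPM in any young one. Clic6 reached 19.8 and 22.6 CPM in aged libraries 4 and 5, and Folr1 15.1 CPM in aged library 2, while Aqp1 stayed under 5 counts everywhere. Prlr reached 11.6 CPM in aged library 2 and at most 1.49 CPM in any young library. Otx2 went the other way, with 8.47 CPM in young library 1 and at most 0.9 CPM in any aged one. Ttr was also the 1 gene of the 9550 that passed the test of age. On the first principal component, aged libraries 1, 3 and 4 scored from -104.7 to -76 and the other 9 libraries from 10.7 to 47.6. Because these 3 lie far from the rest, values without them are given for the counts of members and for the members of largest change. The part that the choroid plexus transcripts, the microglial transcripts and these 3 libraries play in the member results was not tested beyond those values.

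Members spanned a wide range of levels. Compared per length of transcript, as FPKM (fragments scaled by transcript length and library total), the highest mean over the 12 libraries was 268-fold above the lowest. Mrpl42, a mitochondria-specific large subunit protein, stood first at 540 FPKM, where the 5 aged libraries averaged 677 ± 179 FPKM (SD) and the 7 young ones 441 ± 220. Mrpl23, at the exit tunnel, followed at 485 FPKM, with 467 ± 216 in aged and 498 ± 111 in young libraries. Mrpl15 came next at 448 FPKM, with 617 ± 215 in aged and 327 ± 47.1 in young libraries. Mrpl33 was at 381 FPKM, with 481 ± 184 and 309 ± 119. In young libraries the mean of Mrpl23 lay above that of Mrpl15 beyond these spreads. In young library 4 the order was reversed (344.8 FPKM for Mrpl23, 423.1 for Mrpl15). Mrpl23 lay above Mrpl33 in each young library. The other spreads overlap, among them all those of the aged group, so the order of these large subunit members over both groups is not resolved. The small subunit was led by Mrps18c (427 FPKM), a relative of a bacterial small subunit protein, followed by Mrps21 (336), Mrps33 (307) and Mrps14 (192). Mrps18c had 393 ± 183 FPKM in aged and 451 ± 160 in young libraries, and Mrps21 had 319 ± 71.1 and 349 ± 84.2. Mrps18c and Mrps21 did not differ beyond their spread, while Mrps33 lay above Mrps14 in each library.

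In all, 19 members had a mean above 100 FPKM (13 large, 6 small) and 6 had a mean below 10 FPKM. The 6 lowest were Mrps25 (6.74 FPKM), Mrps27 (4.91), Mrpl38 (4.66), Mrps2 (4.58), Mrpl19 (3.74) and Mrps5 (2.01). Most of these proteins enter the particle as single copies, while their transcripts covered this whole range. The median member was at 45.7 FPKM in the large and 34.9 FPKM in the small subunit. The 4 highest members held 33.3% to 55.7% of the summed FPKM of the large subunit and 46.2% to 63.3% of that of the small subunit, depending on the library. Members with bacterial-like numbers had a median of 56.6 FPKM, against 27.2 FPKM for the mitochondria-specific ones, a difference that was not tested.

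**Figure D1:**
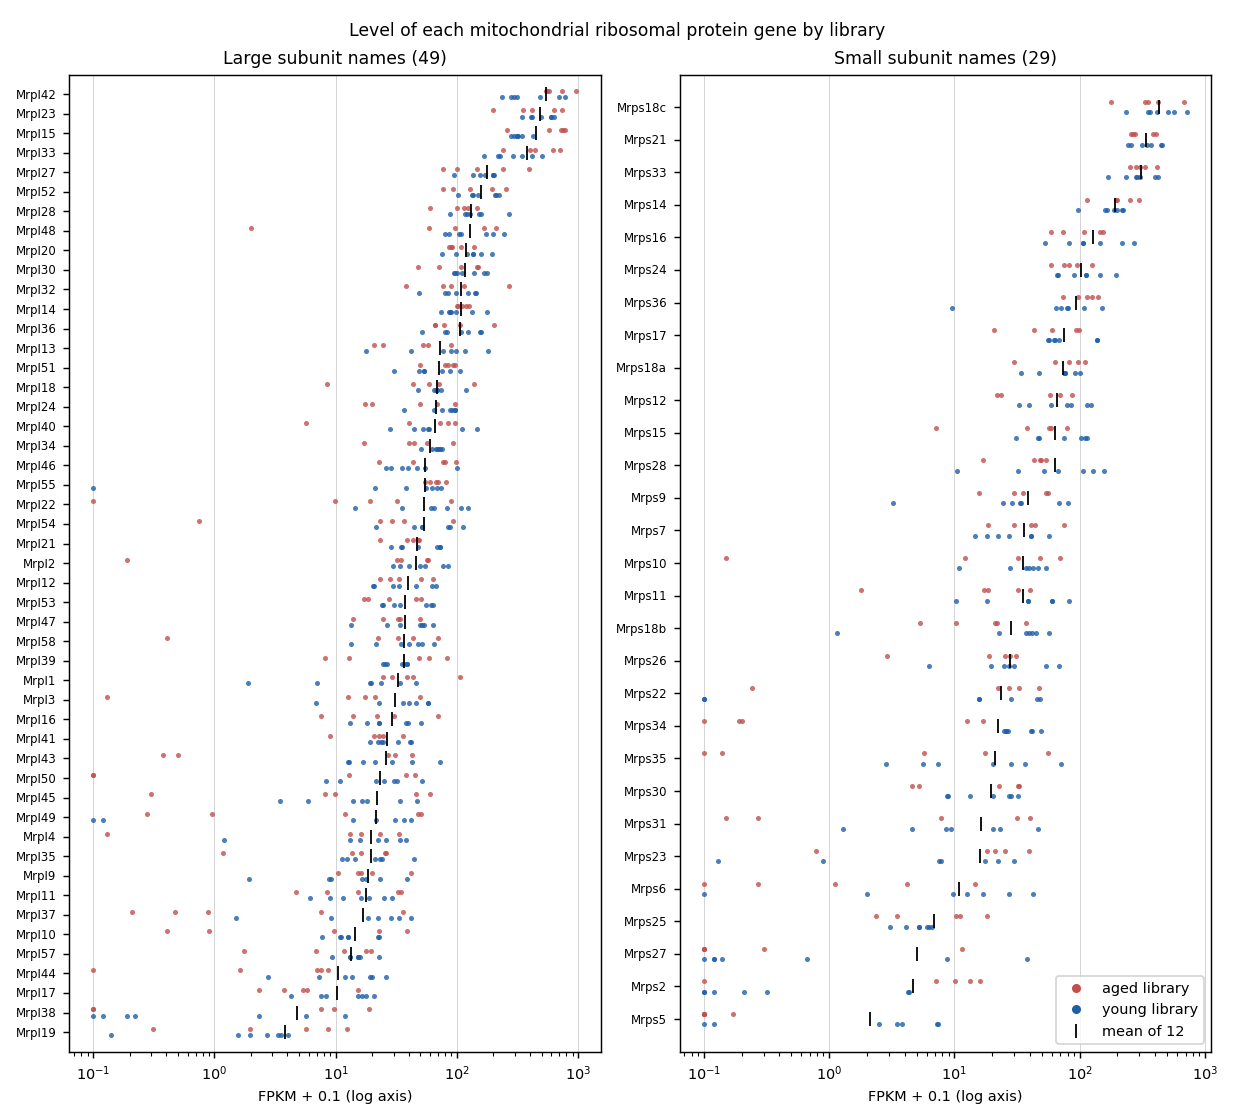
Level of each of the 78 members in every library, as FPKM + 0.1 on a log axis, with large subunit names on the left and small subunit names on the right (red points, 5 aged; blue points, 7 young; black tick, mean of 12). Aged and young points are mixed in nearly every row, and the lower rows hold libraries near 0 beside libraries above 10 FPKM.

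Copies of the genes limit some of these levels. Sequences at least 95% identical over at least 50% of the coding length were annotated for 19 members, in 17 of them a processed pseudogene. Among the members of highest level, Mrps33 has a copy of 99.7% identity over its whole coding length, Mrps21 of 97.3% and Mrpl42 of 96.2%, and the copy of Mrpl23 is identical over 81.6% of it. For Mrpl43 and Mrpl53 the match was an overlapping gene and not a separate copy. Twnk shares 507 exonic bases with Mrpl43 on the opposite strand, and Gm42688 shares 695 with Mrpl53 on the same strand. By symbol, Twnk is also the only match with a row of its own in the count table. Whether reads of the others were counted for the members was not tested. Exonic bases shared with a gene on the opposite strand were annotated for 28 members, and the library chemistry does not mark strand. Counting either kind of strand, 33 members overlap another gene, and 34 have neither an overlap nor a copy. Mrpl15, Mrpl1 and Mrpl37 are among those with neither.

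Detection was uneven between libraries. At least 5 counts in all 12 libraries were reached by 59 members (39 large, 20 small). Another 12 members fell under 5 counts in 1 or 2 libraries, and 7 did so in 3 or more. Of the 936 member values (78 genes in 12 libraries), 27 were 0, spread over 13 members. Per library, between 69 members (88.5%, aged library 1) and 78 (100%, young libraries 5 and 7) had at least 5 counts. Of all tested genes, 78% reached this in aged library 1, 94.4% in young library 5 and 89.1% in young library 7. Among members with a mean of 10 to 500 CPM, 58 of 72 (80.6%) had at least 5 counts in every library, against 61.5% of the 6390 tested genes in the same range. The coefficient of variation (SD over mean) of these 72 members had a median of 63.5% in aged and 51.2% in young libraries. For the 6390 genes it was 70.8% and 58.9%. The 72 members also had higher levels than the 6390 genes (median 48.6 CPM against 34.5), so neither comparison is at equal level. The libraries were not alike in rank: 20 of the 78 members had their lowest CPM in aged library 5 and 13 in aged library 1. The highest value lay in young library 1 for 14 members and in young library 2 for 14. In aged libraries 1, 3 and 4 it lay for 11, 9 and 12. These ranks were not worked out over all genes, so they are not taken as particular to the members. The coefficient of variation was higher in the aged group for 48 of the 72 (66.7%), close to the share over all genes in that range (65.4%).

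Several members had 0 counts in 1 library and high counts in another of the same group. Mrpl50, a mitochondria-specific large subunit protein, had 0 counts in aged libraries 1 and 3 and 795, 2242 and 2071 in aged libraries 2, 4 and 5. Mrpl55 had 0 counts in young library 4 and between 506 and 1999 in every other library. Mrps22, a small subunit protein, had 0 counts in young libraries 1 and 6, 4 in aged library 4, and at least 465 in the other 9. These 3 were picked out after their values were seen. With 3 counts as the floor, a value of 0 allows a level of up to 0.0933 to 0.149 CPM, depending on the library, and covers counting error only.

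**Figure D2:**
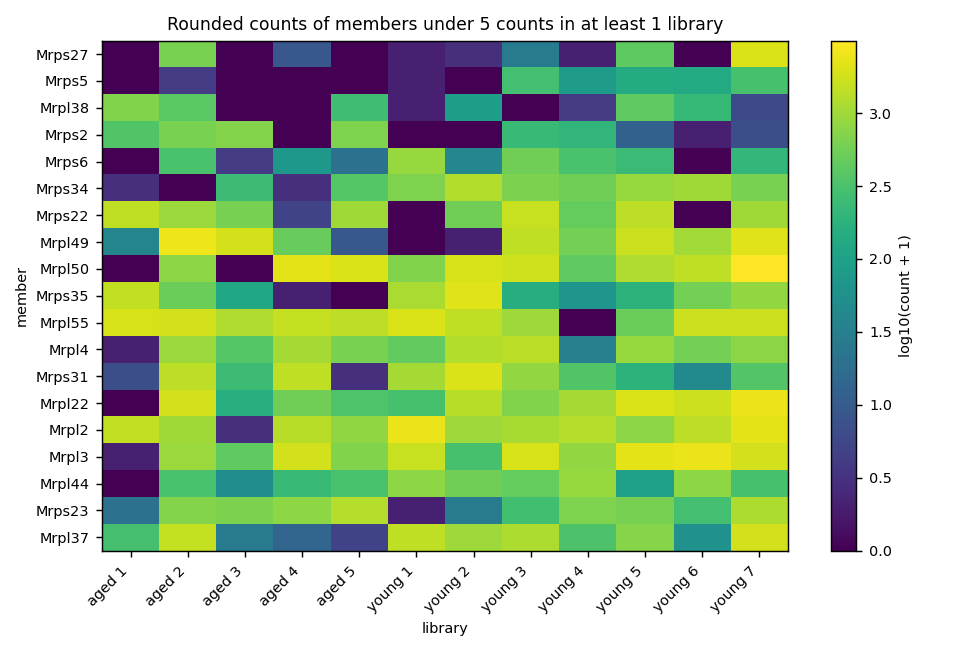
Rounded counts of the 19 members with fewer than 5 counts in at least 1 library, as log10(count + 1) (colour) by library (columns). Dark cells sit beside bright ones within a row and fall in both age groups, as in Mrps22, with 0 counts in young libraries 1 and 6 and 1577 in young library 3.

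The comparison the design asks for is aged against young. No member passed it: 0 of 77 had an adjusted p under 0.05 in edgeR's quasi-likelihood test, where 0.0105% of all genes did. Limma on voom weights also called 0 members, and DESeq2 called 2 (Mrpl15 and Mrps5), with 1.3% of all genes called. At an unadjusted p under 0.05 the test gave 5 of 77 members (6.49%), near the 5.97% of all tested genes. Higher in aged libraries were Mrpl1, Mrpl15, Mrpl33 and Mrpl42, 4 of 77 where 3.85% of all genes were, and lower was Mrps5, 1 of 77 where 2.12% of all genes were. The split of directions was near even, with 36 positive and 41 negative log2 fold changes (46.8% positive, against 49.5% of all genes). On scales that weight low values more, both shares were lower, with 35.1% of members and 45% of all genes positive in limma on voom weights and 31.2% and 39.2% on log2(FPKM + 1). The median log2 fold change, aged over young, was -0.07 over the members and -0.01 over all genes. Log2 fold changes beyond 1 in either direction were seen in 11 members (14.3%), against 28.4% of all genes. Members also have higher levels than most tested genes (median 44.9 CPM against 20.3). Among genes of 10 to 500 CPM the shares were 8.33% of members and 19.7% of all genes. Within that range too the members had higher levels (median 48.6 CPM against 34.5), so the shares are not compared at equal level. Without aged libraries 1, 3 and 4, 24 of 78 log2 fold changes were positive (30.8%, against 45.6% of all genes), 0 members had an adjusted p under 0.05, and 0 had an unadjusted p under 0.05, against 2.85% of all genes.

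The subunits gave nearly the same split in the edgeR test. Of the 49 large subunit members, 23 had a positive and 26 a negative log2 fold change, with a median of -0.07. Of the 28 small subunit members tested, 13 were positive and 15 negative, with a median of -0.06. The groups by origin had medians of 0.00 (large, bacterial-like, 14 positive of 28), -0.17 (large, mitochondria-specific, 9 of 21), -0.16 (small, bacterial-like, 6 of 16) and 0.13 (small, mitochondria-specific, 7 of 12). Single libraries left out moved the medians from -0.20 to 0.09 (large) and from -0.27 to 0.13 (small). Without aged libraries 1, 3 and 4 they were -0.22 and -0.30, with a median of -0.09 over all genes. Limma on voom weights gave -0.33 and -0.28, with a median of -0.13 over all genes.

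**Figure D3:**
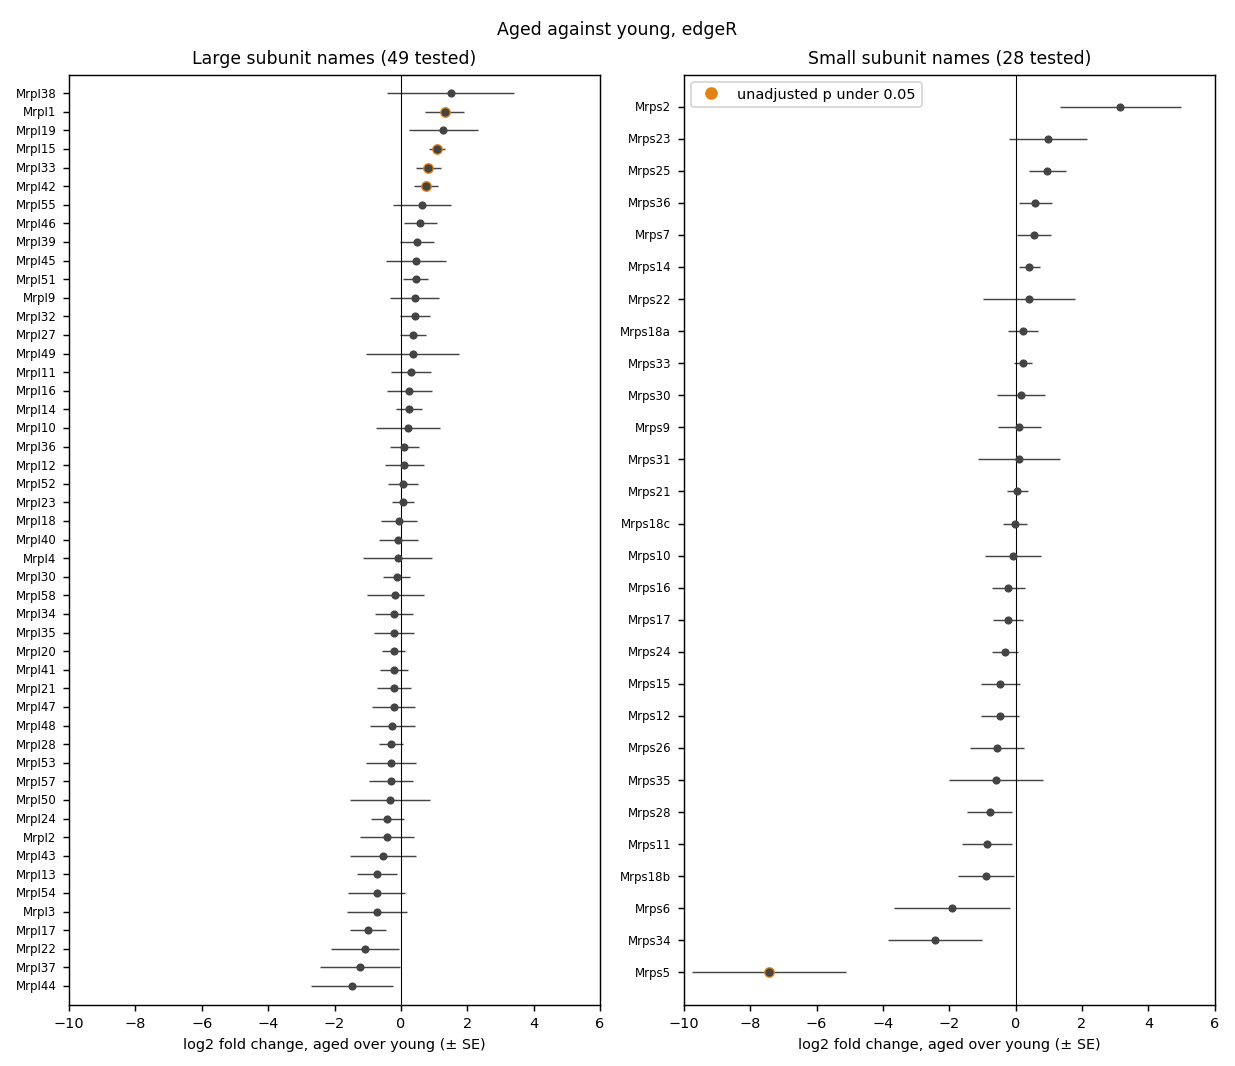
log2 fold change of each tested member, aged over young, with its standard error, from edgeR (49 large subunit names on the left, 28 small on the right; orange marks an unadjusted p under 0.05). Most lie within 1 of 0, and the widest bars belong to members with libraries near 0 counts, such as Mrps5 and Mrps2.

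Mrpl15 is a core protein of the large subunit with a bacterial relative (chromosome 1, 4773198 to 4785750, GRCm38). Its level was 2756, 909, 3119, 2865 and 1750 CPM in aged libraries 1 to 5. In the 7 young libraries it ranged from 938 to 1239 CPM, with a median of 1037. Aged libraries 1, 3, 4 and 5 lay above every young library, and aged library 2 lay below all of them. The young libraries were tight for this gene, with a coefficient of variation of 10%, lower than that of any other member. The means were 2280 ± 927 CPM (SD, n = 5) and 1075 ± 107 CPM (SD, n = 7), a log2 fold change of 1.08 ± 0.24 (SE). The edgeR test gave an unadjusted p of 0.000379 and an adjusted p of 0.187. The call depends on the fit and on a single library. Adjusted p was 0.00489 in DESeq2, 0.0237 in edgeR with bias-adjusted spread estimation (legacy=FALSE), 0.0233 in edgeR without the filter on low counts, and 0.0057 in edgeR without aged library 2. These alternatives called 1.3%, 0.398%, 0.0753% and 0.755% of the genes they tested. With only aged libraries 2 and 5 against the young ones, edgeR gave a log2 fold change of 0.29 and an adjusted p of 1. The transcript length implied by counts and FPKM was steady, at 3442 ± 17 bases in aged and 3420 ± 20 in young libraries.

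Mrpl42 had 666, 350.1, 423.5, 574.3 and 322.8 CPM in aged libraries 1 to 5, and 128.6 to 557.4 CPM, with a median of 209.6, in young ones. All aged libraries lay above the young median, and the groups overlapped through young libraries 1 and 6. The log2 fold change was 0.75 ± 0.35 (SE), with an edgeR adjusted p of 0.824, and it was 0.28 without aged libraries 1, 3 and 4. Mrpl33, among the smallest large subunit proteins, had 269.2, 159.8, 351.8, 216.3 and 84.6 CPM in aged libraries and 57.4 to 222.9 CPM, with a median of 111.6, in young ones. Here aged library 5 fell into the lower part of the young range. For Mrpl33 edgeR gave a log2 fold change of 0.82 ± 0.38 (SE) and an adjusted p of 0.803. Without aged libraries 1, 3 and 4 that value was 0.01. Mrpl1, a protein of the stalk at which transfer RNAs leave, had 101.5, 55.2, 113.5, 271.5 and 74.7 CPM in aged libraries. In young libraries it ranged from 5.19 to 105.3 CPM around a median of 46.8. Aged library 4 held the highest value by a wide margin, and the groups overlapped. For Mrpl1 edgeR gave 1.31 ± 0.58 (log2, SE) and an adjusted p of 0.774, with 0.78 when aged library 4 was left out and 0.38 without aged libraries 1, 3 and 4.

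**Figure D4:**
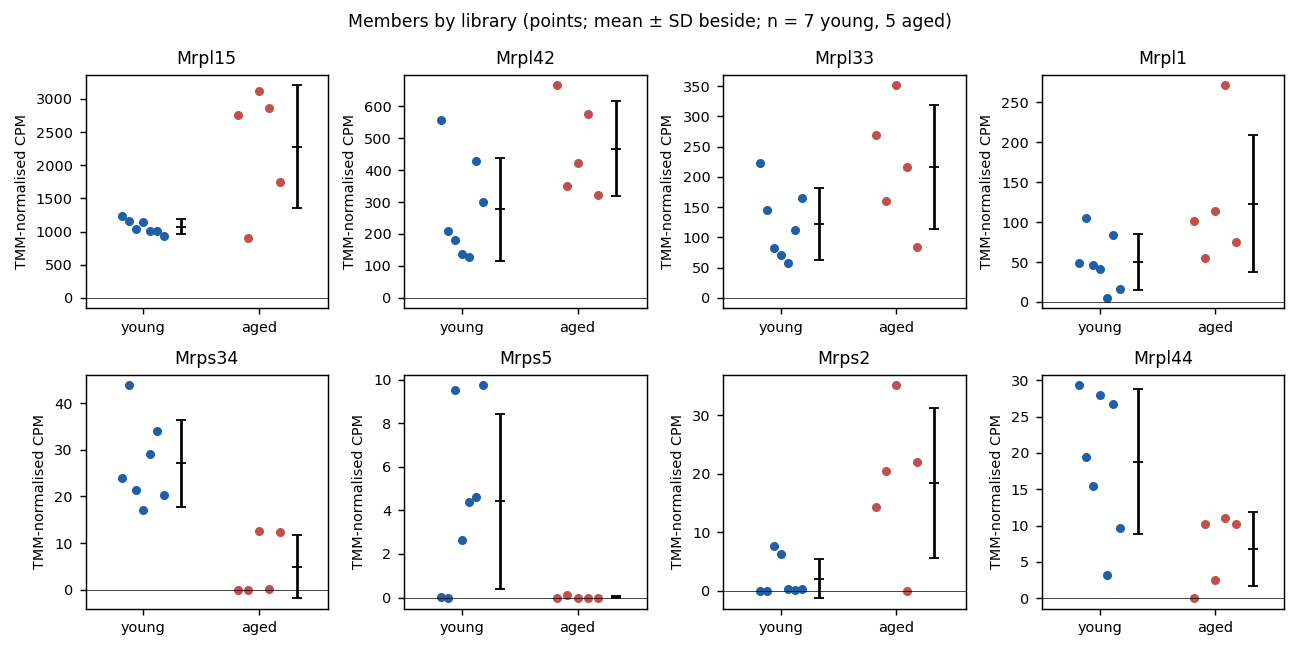
TMM-normalised CPM of 8 members in each library (blue, 7 young; red, 5 aged), with mean ± SD beside the points and a separate linear axis for each gene. Of these 8, only Mrps34 has groups that do not overlap, with every aged library at or below 12.5 CPM and every young library at or above 17.1 CPM.

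Mrps34, a mitochondria-specific small subunit protein (chromosome 17, 24895120 to 24896289), was the 1 member with at least 5 CPM whose age groups did not overlap. Over all tested genes 0.597% had groups that did not overlap (0.272% lower and 0.325% higher in aged libraries), so a single member in 77 is no departure from that background. Its counts in aged libraries 1 to 5 were 2, 0, 251, 2 and 369, and the young counts ran from 549 to 1231. Aged libraries 1, 2 and 4 were thus under the floor of 3 counts, while aged libraries 3 and 5, at 12.5 and 12.3 CPM, came closer to the lowest young library, at 17.1 CPM. The means were 5.00 ± 6.76 CPM (SD, n = 5) and 27.1 ± 9.30 CPM (SD, n = 7). The log2 fold change was -2.44 ± 1.42 (SE), with an edgeR adjusted p of 0.999, and it was -2.17 without aged libraries 1, 3 and 4. Mrps34 shares 1309 exonic bases with Mapk8ip3 on the opposite strand and 763 with Nme3 on the same strand, so its counts may include reads of both.

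Mrps5 and Mrps2, small subunit proteins with bacterial relatives, were named after their values were seen, and both are members of low level. Mrps5 had 0, 3, 0, 0 and 0 counts in aged libraries and 1, 0, 285, 85, 139, 135 and 297 in young ones. Summed over libraries, 942 young and 3 aged counts gave a ratio per total count of 204 (95% counting interval 69.8 to 993). That interval covers counting error only, and young libraries 1 and 2 were as low as the aged ones. The edgeR fit gave an unadjusted p of 0.00523 and an adjusted p of 0.38, and DESeq2 an adjusted p of 0.036, where 1.3% of all genes were called. A pseudogene 98.4% identical to Mrps5 over 78.4% of its coding length has no row in the count table, and its part in these counts was not tested. Mrps2 leaned the other way, with 356, 611, 705, 0 and 663 counts in aged libraries and 0, 0, 227, 201, 11, 1 and 6 in young ones. The edgeR estimate for Mrps2 was 3.16 ± 1.83 (log2, SE) with an adjusted p of 0.999, and the groups overlapped. Dropping aged libraries 1, 3 and 4 left -6.33 for Mrps5 and 3.36 for Mrps2. Mrps27, the untested member, had 616 counts in aged library 2, 419 in young library 5 and 2041 in young library 7, and at most 27 in any other.

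Among members with a mean of at least 10 CPM, the largest positive log2 fold changes after Mrpl1 were those of Mrpl19 (1.27 ± 1.04 SE), Mrpl15, Mrps23 (0.98 ± 1.17) and Mrps25 (0.96 ± 0.56). Mrps25 had 71.3, 111.9, 72.3, 15.6 and 18.0 CPM in aged libraries and 17.6 to 40.1 CPM, with a median of 28.6, in young ones. Aged libraries 1, 2 and 3 were above every young library, aged library 5 was at the lower end of the young range, and aged library 4 was below it. Leaving out aged library 2 moved Mrps25 to 0.58 on the log2 scale. The gene shares 4590 exonic bases with Nr2c2 on the opposite strand, and Mrpl19 shares 1962 with Gcfc2. The largest negative values after Mrps34 were those of Mrpl44 (-1.47 ± 1.24 SE), Mrpl37 (-1.24 ± 1.21), Mrpl22 (-1.09 ± 1.02), a protein that lines the exit tunnel, and Mrpl17 (-0.98 ± 0.54). Mrpl44 had 0, 10.2, 2.49, 10.97 and 10.2 CPM in aged libraries and 3.13 to 29.3 CPM, with a median of 19.4, in young ones. Mrpl22 had 0, 60.7, 7.97, 26.1 and 11.5 CPM against 11.1 to 82.0 CPM, with a median of 47.0. In these 2 genes, aged values lay mostly in or below the lower part of the young range, and the groups overlapped. Mrpl19, Mrps23, Mrps25, Mrpl44, Mrpl37 and Mrpl22 had an edgeR adjusted p of 0.999, and Mrpl17 of 0.982. Leaving out aged library 2 moved Mrpl37 to -3.19, Mrpl22 to -1.99 and Mrpl17 to -1.56. Without aged libraries 1, 3 and 4 the values were -0.22 for Mrpl37, -0.32 for Mrpl22, -0.33 for Mrpl17 and -0.88 for Mrpl44. In the same fit Mrpl19 was at 2.07, Mrps23 at 1.24 and Mrps25 at 1.14.

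Members chosen for their roles in decoding, factor binding and the exit tunnel gave no call. Mrps12, part of the decoding centre, had 33.5 ± 17.1 CPM in aged and 46.5 ± 24.5 CPM in young libraries, a log2 fold change of -0.47 ± 0.57 (SE). Mrps14, in the head of the small subunit, had 244 ± 98.3 and 184 ± 57.5 CPM (0.41 ± 0.31). Mrpl12, the stalk protein that recruits translation factors, had 37.1 ± 14.9 and 34.5 ± 17.7 CPM (0.10 ± 0.58), and Mrpl23 had 263 ± 117 and 253 ± 80.3 CPM (0.06 ± 0.33). Of the 3 Mrps18 paralogs, Mrps18c had 190 ± 94.6 CPM in aged and 193 ± 87.9 in young libraries (-0.02 ± 0.37). Mrps18a had 65.7 ± 29.3 and 56.0 ± 21.9 CPM (0.23 ± 0.45), and Mrps18b 17.9 ± 12.4 and 33.1 ± 18.5 CPM (-0.88 ± 0.85). Per length of transcript, the same paralogs stood at means of 427, 73.7 and 28.1 FPKM. Mrps30 had 33.1 ± 24.7 and 29.7 ± 15.7 CPM (0.16 ± 0.72), and Mrps36 76.5 ± 19.1 and 50.6 ± 29.6 CPM (0.60 ± 0.51). The edgeR adjusted p was 0.999 for each of these 9 genes.

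The balance between the subunits was described by summing FPKM over the members of each name group in each library. The large subunit sum was 4480 ± 809 FPKM over the 5 aged libraries and 4107 ± 655 over the 7 young ones (mean ± SD). The small subunit sum was 2128 ± 401 and 2374 ± 553 FPKM, and both sums overlapped between the groups. The 2 sums added up to totals from 4718 FPKM in aged library 5 to 8260 FPKM in young library 1. Their ratio, large over small, was 2.08, 2.02, 2.24, 2.09 and 2.11 in aged libraries 1 to 5. In young libraries it ran from 1.551 to 1.996, with a median of 1.73. The means were 2.11 ± 0.08 and 1.76 ± 0.16, and every aged library lay above every young one, those standing apart and the others alike. The numbers of names alone would give 1.69 with equal levels. As a summary over the members, the ratio carries no test.

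This gap was narrow and did not hold for every choice of members or unit. The lowest aged value was 2.02 and the highest young value 1.996. With Mrpl15 left out of the sum, the ratios were 1.81 ± 0.07 in aged and 1.61 ± 0.13 in young libraries, and they overlapped (lowest aged 1.73, highest young 1.80). Leaving out each of the 78 members in turn gave ratios that did not overlap in 66 cases and did overlap in 12, and the difference of the means ran from 0.201 to 0.474 around 0.351. The 12 were Mrpl15, Mrpl23, Mrpl27, Mrpl33, Mrpl42, Mrpl51, Mrps18c, Mrps21, Mrps22, Mrps24, Mrps33 and Mrps34. Among these, the difference was smallest without Mrpl15 (0.201), Mrpl42 (0.211) and Mrpl33 (0.253). It was largest without Mrps33 (0.474), Mrps21 (0.436) and Mrps18c (0.409), and from 0.332 to 0.358 without the rest. Without the 2 highest members of each subunit the ratios were 2.37 ± 0.33 and 2.05 ± 0.23, with overlap (lowest aged 1.96, highest young 2.48). Summed CPM, which weights long transcripts more, gave 3.15 ± 0.49 and 2.41 ± 0.27, also with overlap. There Mrpl15 alone held 21.3% to 48.3% of the large subunit sum in aged and 20.5% to 39.0% in young libraries. Without it, the CPM ratios were 1.84 ± 0.10 and 1.74 ± 0.16. Placing Mrps18a and Mrps30 in the large subunit and leaving out Mrps36 gave 2.38 ± 0.06 and 1.94 ± 0.19, with no overlap.

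**Figure D5:**
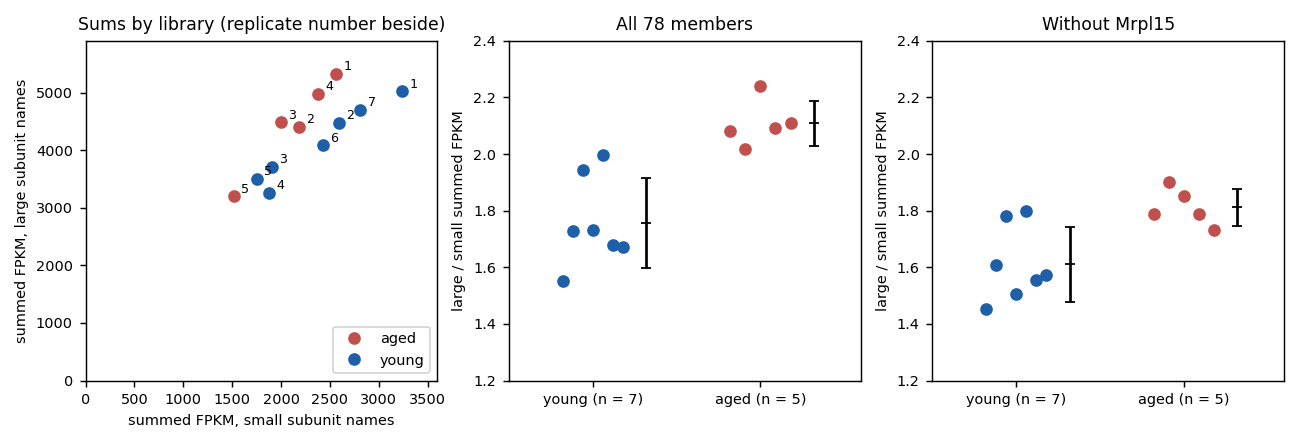
Left, summed FPKM of the 49 large against the 29 small subunit names in each library, with the replicate number beside each point (red, aged; blue, young). Middle and right, their ratio by age group with mean ± SD beside the points, over all 78 members and without Mrpl15; the lowest aged and highest young values are 2.02 and 1.996 in the middle panel and 1.73 and 1.80 in the right one.

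The genes that build and serve the mitoribosome gave no call either, in lists drawn up from general knowledge, and DESeq2 and limma on voom weights called 0 of them as well. At an unadjusted p under 0.05 edgeR gave 1 of them, Slirp, where 5.97% of all genes were. DESeq2 gave 2 and limma on voom weights 3, all of them among the 14 translation factors tested. Those fits gave 8.4% and 8.84% of all genes. For the directions below, 49.5% of all genes had a positive log2 fold change in edgeR. Of 5 mitoribosome subunits with names outside the Mrpl and Mrps series, 0 passed the test, with 1 positive and 4 negative log2 fold changes and a median of -0.03. Chchd1, a small subunit protein, had the lowest p of these, with 195 ± 74.6 CPM in aged and 127 ± 44.9 CPM in young libraries (edgeR adjusted p = 0.913). Aurkaip1, also in the small subunit, had 29.6 ± 18.2 and 58.5 ± 27.3 CPM. Of the 16 translation factors found, 14 were tested and 0 passed, 7 in each direction (median -0.04). Slirp, which stabilises mitochondrial messengers together with Lrpprc, had 310 ± 102 and 202 ± 52.2 CPM, with an edgeR unadjusted p of 0.0263 and an adjusted p of 0.657. Mtfmt, which formylates the initiator transfer RNA, had 48.2 ± 17.5 and 19.9 ± 13.6 CPM (edgeR adjusted p = 0.913).

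Of 26 assembly and ribosomal RNA modification factors found, 20 were tested and 0 passed, with 7 positive and 13 negative values and a median of -0.37. Malsu1, an assembly factor of the large subunit, had 20.7 ± 9.84 CPM in aged and 35.7 ± 16.8 in young libraries. Rbfa, which acts in the maturation of the small subunit, had 19.0 ± 17.0 and 39.2 ± 14.9 CPM. Of 17 mitochondrial aminoacyl-tRNA synthetases, which charge the transfer RNAs, 13 were tested and 0 passed, with 8 positive and 5 negative values and a median of 0.15. Rars2 had 61.8 ± 49.3 and 37.2 ± 19.9 CPM, and Wars2 2.28 ± 2.47 and 8.65 ± 15.5 CPM. The lists beside the ribosomal proteins were lower in level, from a median of 25.6 FPKM for the other-named subunits to 8.73 for the translation factors, 5.54 for the assembly factors and 1.42 for the synthetases, against 38.1 FPKM for the members themselves.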

How the data were processed

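SMART-seq2 libraries (oligo-dT primed, amplified full-length cDNA, Nextera XT) were sequenced as DNA nanoballs, per the labels' protocols. This chemistry marks neither strand nor molecule, so amplified copies count as separate reads. The authors deposited estimated counts per gene, of which 88.2% to 90.6% per library were whole numbers. They also deposited values without a named unit, read here as FPKM since count over value gave, after scaling to the library total, lengths like those of transcripts. The submitters' processing notes list RSEM 1.2.12, DESeq2 1.4.5, HISAT2 2.0.4 and Bowtie2 2.2.5, without role or order, and the build GRCm38 (mm10). Which annotation was used is not stated there.

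Counts were rounded and tested with edgeR 4.0.16 in R 4.3.3 (quasi-likelihood test, legacy estimation, robust, TMM factors, filterByExpr). P-values were adjusted by Benjamini-Hochberg over the 9550 tested genes, with 0.05 as the threshold, and the common biological coefficient of variation was 1.33. Levels are TMM-normalised CPM or FPKM as mean ± SD, SEs come from the F statistic, and the floor of 3 counts covers counting error only. DESeq2 1.42.0 and limma 3.58.1 (on voom weights or log2(FPKM + 1)) were alternatives. The fit was tested on simulated data. Overlaps and copies came from GENCODE M21 and BLAST 2.17.0, and promoters from RefSeq (GRCm38.p6). Members named are those past the threshold (none), the 4 of highest mean FPKM per subunit, and, from 10 CPM, the 5 largest log2 fold changes in each direction. Members from 5 CPM whose groups do not overlap, and 9 chosen for their roles, were also named. For each pathway list the 2 lowest p-values are given. The members and lists were chosen with earlier results of these data known.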

Additional observations from a re-analysis of the deposited data

Results flagged for a closer look

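Of 54 groups of 5 or 7 libraries checked, 4 held a library whose gap to its nearest neighbour was wide for a group of that size. The rule flags about 1 in 20 such groups by chance where values are normally distributed. Its rate in CPM values with a spread as wide as here was not tested. All 4 lie in the aged group. Mrpl1 had 271.5 CPM in aged library 4, with 113.5 CPM next. Mrpl17 had 102.6 CPM in aged library 2, with 37.9 CPM next. Mrpl37 had 52.5 CPM in the same library, with 11.6 CPM next. Mrps5 had 0.101 CPM (3 counts) in aged library 2 and 0 counts in the other aged libraries, where any count at all would have been flagged.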

How the results depend on the processing

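With 1 gene of 9550 called in edgeR, the count was 121 in DESeq2, 38 with bias-adjusted spread (legacy=FALSE), 13 without the filter on low counts, 3 on log2(FPKM + 1) and 0 on log2(FPKM + 0.1). It was 0 without aged libraries 1, 3 and 4, and ranged from 0 to 75 with single libraries left out (75 without aged library 2). Of the members, 0 were called in edgeR, 2 in DESeq2 (Mrpl15, Mrps5), 1 with legacy=FALSE and 1 without the filter (Mrpl15 both times), and 0 to 1 with single libraries left out (Mrpl15 without aged library 2). The cause was not tested. The replicate block, over numbers 1 to 5, called 0 genes and 0 members. Same-numbered libraries did not deviate together (correlations from -0.0405 to 0.0938), so the numbers were not taken to pair them. The mean ratio of large to small subunit sums, 2.108 in aged and 1.757 in young libraries, was 2.382 and 1.938 with Mrps18a and Mrps30 moved and Mrps36 left out, 3.146 and 2.409 on CPM, and 2.371 and 2.051 without the 2 highest members of each subunit. Without Mrpl15, an alternative chosen after seeing the data, the aged mean was 1.812 on FPKM and 1.841 on CPM. The 14 members followed were picked by their values in these data. Most alternatives left out only 1 library, so a kept sign was likely beforehand. Mrps5 was not tested in every alternative. The 14 kept their sign in all 302 alternatives run, but not their size. Over these, log2 fold changes ran from 0.01 to 1.01 for Mrpl33, 0.29 to 1.29 for Mrpl15, 0.28 to 1.11 for Mrpl42, 0.38 to 1.61 for Mrpl1, -3.65 to -0.22 for Mrpl37, -2.94 to -0.32 for Mrpl22 and -9.94 to -1.73 for Mrps5. Median log2 fold changes with single libraries left out ran from -0.20 to 0.09 (large) and -0.27 to 0.13 (small). On log2(FPKM + 1) they were -0.35 and -0.29, and on log2(FPKM + 0.1) -0.39 and -0.32. Limma on voom weights, limma on FPKM and the replicate block moved the median of all genes by more than 0.1, to between -0.25 and -0.13. The spread between libraries and the number of libraries limit what differences could be called, and counts near 0 limit the lowest members.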
